A study of Rattus norvegicus with 12 samples.

Results

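The 14-3-3 proteins of rat N27 cells, a dopaminergic neural cell line, were followed at the transcript level after exposure to the insecticide fipronil. The family was taken as the 7 genes Ywhab, Ywhae, Ywhag, Ywhah, Ywhaq, Ywhaz and Sfn among 36174 gene names on the array. Every probe that was not a control and carried one of these names in the array files was used, which gave 8 of 45598 probes, 2 of them for Ywhaz and 1 for each other gene. One-colour arrays measured the total RNA of 6 samples given 25 µM fipronil over 24 h and of 6 untreated control samples. The labels name neither a vehicle in the control cells nor separate cultures for the replicates, so the p-values speak only of how far these samples spread, and part of that may be technical. The probes were picked by name, but the family was taken up after its fipronil against control differences had been seen. Those differences and their p-values are therefore given as a description.

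14-3-3 proteins are small acidic adaptors that work as dimers and dock onto phosphorylated serine or threonine motifs of client proteins, holding them in the cytoplasm, masking a surface or keeping an enzyme active. They are abundant in brain. Their gene names recall that they were described there as activators of tyrosine hydroxylase and tryptophan hydroxylase, the enzymes that start dopamine and serotonin synthesis. Ywhab encodes the beta isoform, Ywhae epsilon, Ywhag gamma, Ywhah eta, Ywhaq theta (also called tau) and Ywhaz zeta. Sfn encodes sigma, or stratifin, known from epithelial cells as a target of p53.

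The arrays lay on 3 slides. Slide 1 held fipronil replicates 7 and 8 and control replicates 2 and 3. Slide 3 held fipronil replicates 1 to 4 alone and slide 2 held control replicates 5 to 8 alone, so outside slide 1 the slide and the treatment cannot be told apart. The 75th percentile of the processed signal ran from 111 to 140 on slide 3, from 378.7 to 472 on slide 2 and from 245 to 279 on slide 1. Signals are given on the log2 scale relative to that percentile of each array, and the number of arrays limits the precision. Of the 7 dopaminergic neuron markers, 2 (Th and Aldh1a1) were detected well enough to be tested, and Slc6a3, Ddc, Slc18a2, Nr4a2 and Pitx3 were not. Between 1 and 2 of the 4 or 5 markers were tested for neurons, astrocytes, oligodendrocytes, microglia and leukocytes, and endothelial cells. Of all these markers 0 passed an adjusted p of 0.05 in limma, where 5.30% of all tested probes did, and so few markers say little. At an unadjusted p under 0.05, which 25.0% of all tested probes had, there were 2 of the 2 tested dopaminergic markers, the 2 of oligodendrocytes and 1 of endothelial cells. Th, Aldh1a1, Mag and Cnp averaged lower with fipronil (-0.48, -0.84, -0.69 and -0.53), and Flt1 averaged higher (0.69). On slide 1 these differences were 0.10, -0.98, 0.03, 0.22 and -0.17, so only Aldh1a1 kept its sign.

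The results turned mainly on the 2 Ywhaz probes, and on Ywhab, the isoform whose difference lay farthest from that of the upstream one. The array files place both Ywhaz probes on the minus strand of chromosome 7, with starts 2022 bases apart along that strand, in the build their header names as rn4. The upstream one (chr7:72284550-72284609) is annotated to the transcript NM_013011, which RefSeq still assigns to Ywhaz. The downstream one (chr7:72282528-72282587) is annotated to a predicted transcript, XM_006241529, and is held to Ywhaz by its name. The Ywhab probe lies on the plus strand of chromosome 3 (chr3:154948003-154948062) and is annotated to NM_019377. Whether the probes lie in coding or untranslated sequence was not analysed here. The first 30 of the 60 bases of each probe are shown, 5′ to 3′ as in the array files, to show that they read different sequence.
Ywhaz upstream probe: aggtggccaatatgggatgtggaattttta
Ywhaz downstream probe: tggcttactcatatgcattagacattggta
Ywhab: taccttgacattccgtgtacccatagctgt
Over the whole probes, no pair of the 8 (28 pairs) shared more than 9 bases in a row on the same strand. The other probes lie at chr10:63109445-63109504 (Ywhae, plus strand), chr12:21887674-21887733 (Ywhag, plus strand), chr14:83448751-83448810 (Ywhah, minus strand), chr6:41946201-41946260 (Ywhaq, minus strand) and chr5:151480019-151480078 (Sfn, plus strand). RefSeq's assembly GRCr8 puts the 7 genes on the same chromosomes, but has Sfn on the minus strand, so whether the Sfn probe reads the Sfn transcript could not be settled here.

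After fipronil, the transcript read by the upstream Ywhaz probe was lower on every array, whereas no other probe of the 7 named genes passed the threshold. The upstream Ywhaz probe fell 1.83-fold. Ywhah and Ywhae averaged lower (1.30-fold and 1.21-fold), Ywhab averaged higher (1.34-fold), and Ywhag, Ywhaq and the downstream Ywhaz probe averaged within 0.04 of the controls on the log2 scale. The Sfn probe was hardly detected. In numbers, 1 of the 7 tested family probes passed an adjusted p of 0.05 in limma, where 5.30% of all 16291 tested probes did, and the same probe was the 1 of 7 whose groups did not overlap, against 4.20% of all tested probes (2.60% with all fipronil values lower and 1.60% with all higher). The family had been seen in this comparison before, so nothing is read from these shares.

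**Figure D1:**
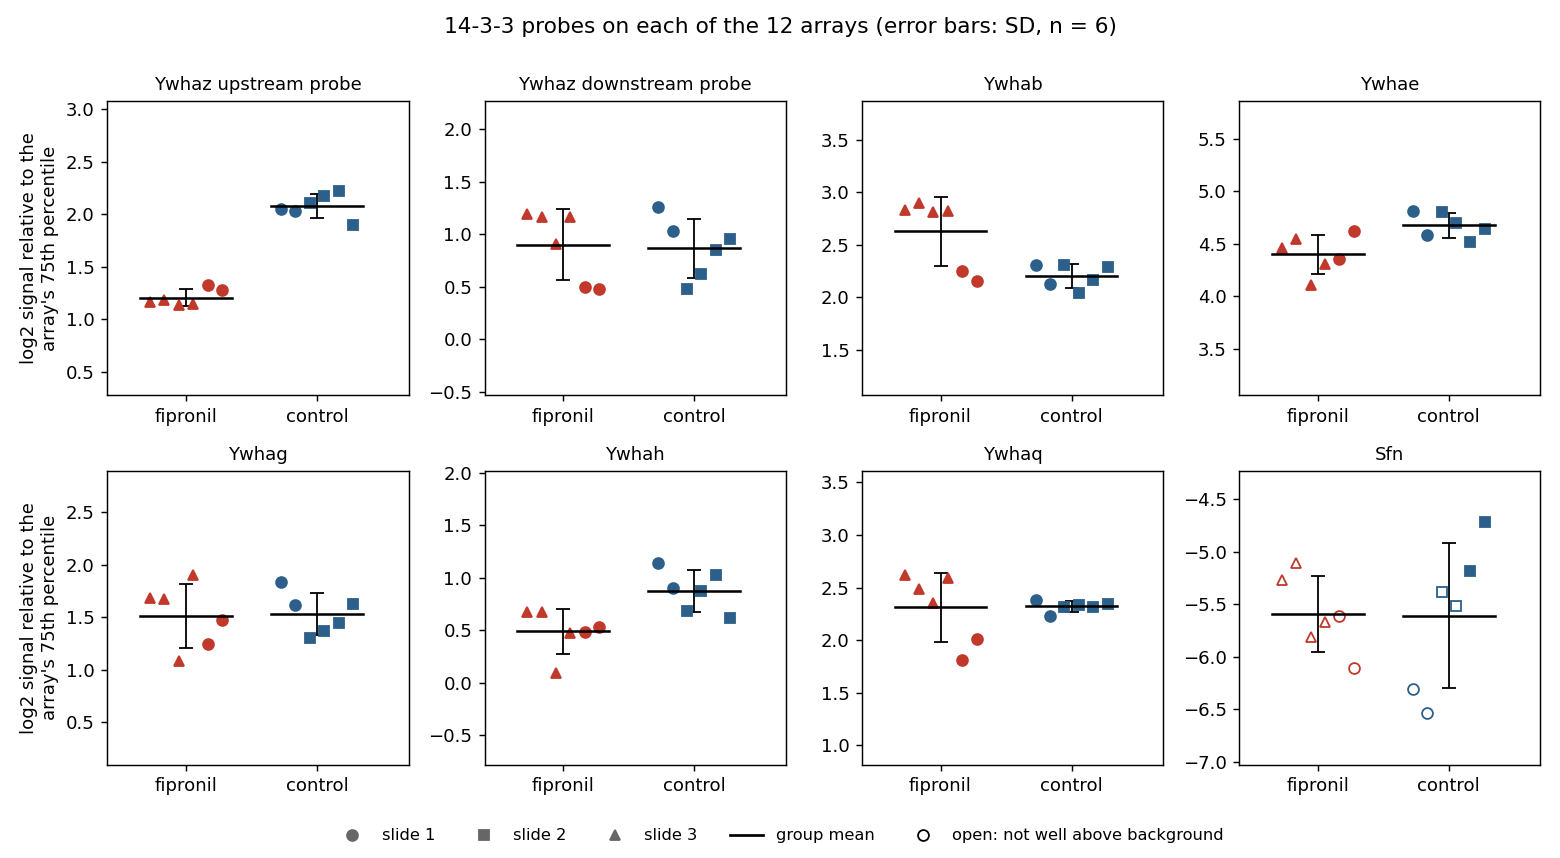
Log2 signal of each 14-3-3 probe relative to the array's 75th percentile (vertical axis, the same span in each panel) on the 6 fipronil arrays (left, red) and the 6 control arrays (right, blue). Marker shape gives the slide, open markers were not well above background, and bars give the mean ± SD. The upstream Ywhaz probe is the panel without overlap, with 1.14 to 1.32 on fipronil arrays and 1.89 to 2.22 on control arrays.

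Ywhaz encodes the zeta isoform, one of the most studied 14-3-3 proteins. Both probes that carry its name stood well above background on all 12 arrays. The upstream probe had a log2 signal of 1.14 at the lowest, 1.18 at the median and 1.32 at the highest on fipronil arrays, against 1.89, 2.08 and 2.22 on control arrays. All 6 fipronil values lay below all 6 control values, and the fipronil arrays of both slides lay close together. The means were 1.21 ± 0.08 with fipronil and 2.08 ± 0.12 in controls (SD, n = 6 each). Its log2 difference was -0.87 ± 0.10 (SE, adjusted p 0.00484 in limma), and it had the smallest unadjusted p of the 16291 tested probes. Among those probes, 3.31% differed at least as far in either direction. On slide 1 the values were 1.32 and 1.28 in fipronil replicates 7 and 8, against 2.05 and 2.03 in control replicates 2 and 3, a difference of -0.74. Slide 3 fipronil minus slide 2 control gave -0.94. When slide entered the fit as a fixed block, so that slide 1 alone set the difference, it was -0.74 ± 0.15 (SE, adjusted p 0.101 in limma), and 4 of all tested probes (0.0246%) passed in that fit. With slide as a random block the adjusted p was 0.0346, and 26 probes (0.160%) passed. Before any scaling between arrays the processed signal of this probe was 597 and 616 on the fipronil arrays of slide 1, against 1101 and 1158 on its control arrays. All other tested family probes were also lower there before scaling, Ywhab with 1091 and 1172 against 1173 and 1382. The 75th percentile was 245 and 246 on those fipronil arrays, against 269 and 279 on the control arrays. In the leave-one-out fits, 12 of 12 kept the call.

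The downstream Ywhaz probe gave another picture. Its log2 signal was 0.48 at the lowest, 1.03 at the median and 1.19 at the highest on fipronil arrays, against 0.48, 0.90 and 1.26 on control arrays. The groups overlapped over most of their range. The means were 0.90 ± 0.34 with fipronil and 0.86 ± 0.28 in controls (SD, n = 6 each), with a log2 difference of 0.04 ± 0.18 (SE, adjusted p 0.916 in limma, 95% interval -0.34 to 0.41). The slides disagreed in sign. On slide 1 fipronil replicates 7 and 8 had 0.50 and 0.48, against 1.26 and 1.03 in control replicates 2 and 3, a difference of -0.66 (adjusted p 0.134 in the fixed slide block). Slide 3 fipronil minus slide 2 control gave 0.38. Within a treatment this probe also moved with the slide: fipronil arrays of slide 3 averaged 0.62 above those of slide 1, and control arrays of slide 2 averaged 0.42 below those of slide 1. For the upstream probe these shifts were -0.14 and 0.06. On the slide that holds both treatments the Ywhaz probes therefore differed from the controls by like amounts, -0.74 and -0.66.

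The ratio of the Ywhaz probes within an array does not depend on a scaling factor of that array. The log2 ratio of upstream over downstream probe was -0.03 at the lowest and 0.82 at the highest on fipronil arrays, against 0.79 and 1.63 on control arrays. The 4 fipronil arrays of slide 3 were the low ones, and the fipronil arrays of slide 1, at 0.82 and 0.81, lay among the controls of that slide, at 0.79 and 1.01. The mean ratio was 0.31 ± 0.40 with fipronil and 1.22 ± 0.35 in controls (SD, n = 6 each), a difference of -0.91 (exact two-sided permutation p 0.00649 over 924 regroupings, smallest possible 0.00216). The difference was -0.08 on slide 1 and -1.32 across slides 2 and 3. Some disagreement between probes of a gene was common here, and disagreement as large as that of the Ywhaz probes was not. Over such pairs the median absolute difference was 0.28. Of 3237 pairs of tested probes that name the same gene (2044 genes), 30.2% had an exact p under 0.05, and 6.27% differed at least as much as the Ywhaz probes.

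**Figure D2:**
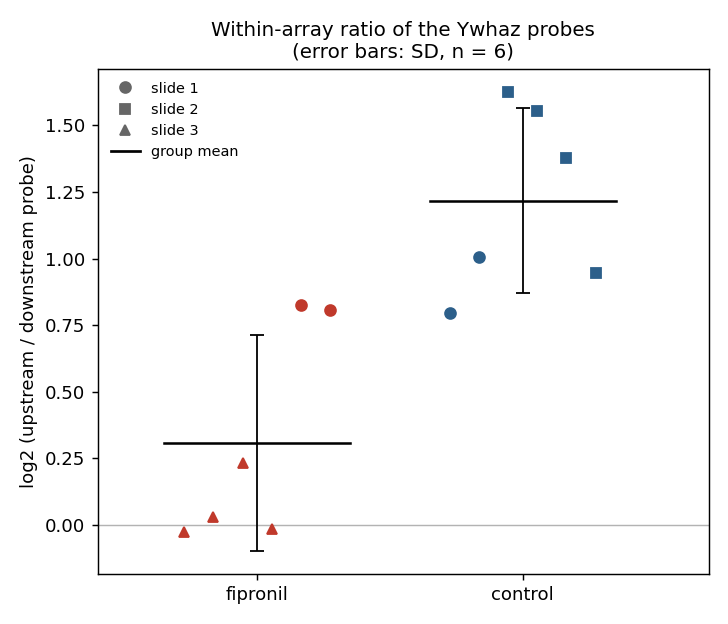
Log2 ratio of the upstream over the downstream Ywhaz probe on each array (vertical axis), fipronil left and control right, with marker shape for the slide and bars for mean ± SD (n = 6). The fipronil arrays of slide 1, at 0.82 and 0.81, sit level with the slide 1 controls at 0.79 and 1.01, and the fipronil arrays of slide 3 sit between -0.03 and 0.23.

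Ywhab encodes the beta isoform, a close relative of zeta that binds RAF kinases. Its log2 signal was 2.15 at the lowest, 2.82 at the median and 2.90 at the highest on fipronil arrays, against 2.04, 2.23 and 2.31 on control arrays. The 4 fipronil arrays of slide 3, at 2.82 to 2.90, stood above all controls, and the fipronil arrays of slide 1, at 2.25 and 2.15, lay among them. The difference of 0.42 ± 0.15 (SE) did not pass over the 12 arrays (adjusted p 0.105 in limma). It was -0.01 on slide 1 and 0.64 across slides 2 and 3. Without fipronil replicate 8 alone, Ywhab passed (0.52, adjusted p 0.0258 in limma).

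Ywhae, the epsilon isoform, is the most divergent of the brain isoforms, and in people its loss forms part of the deletion behind Miller-Dieker lissencephaly. On the log2 scale its signal was 4.11 at the lowest, 4.41 at the median and 4.62 at the highest on fipronil arrays, against 4.52, 4.67 and 4.82 on control arrays. On 4 of the 6 fipronil arrays it lay below every control array. The difference was -0.28 ± 0.11 (SE, adjusted p 0.149 in limma), with -0.21 on slide 1 and -0.31 across slides 2 and 3.

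Ywhah, the eta isoform, was printed in 10 spots on each array, whose SD within an array ran from 0.04 to 0.25. Its log2 signal was 0.10 at the lowest, 0.51 at the median and 0.68 at the highest on fipronil arrays, against 0.62, 0.89 and 1.15 on control arrays. On 4 of the 6 fipronil arrays it too lay below every control array. The difference was -0.38 ± 0.13 (SE, adjusted p 0.0977 in limma), with -0.51 on slide 1 and -0.32 across slides 2 and 3. Of the family probes that did not pass, Ywhae and Ywhah had the same sign on slide 1 and across the other slides.

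Ywhag, the gamma isoform, is a neuronal form whose variants cause a human epileptic encephalopathy. Its log2 signal was 1.09 at the lowest, 1.57 at the median and 1.90 at the highest on fipronil arrays, against 1.30, 1.53 and 1.84 on control arrays. The groups overlapped, and the difference was -0.02 ± 0.15 (SE, adjusted p 0.944 in limma, 95% interval -0.35 to 0.31). It was -0.37 on slide 1 and 0.15 across slides 2 and 3.

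Ywhaq, the theta isoform, was the steadiest member in controls. The signal of its probe was 1.81 at the lowest, 2.42 at the median and 2.62 at the highest on fipronil arrays, against 2.23, 2.33 and 2.38 on control arrays. Its SD was 0.33 with fipronil and 0.05 in controls (n = 6 each). The fipronil arrays lay on both sides of the controls: those of slide 1, at 1.81 and 2.01, were below every control, and 3 of the 4 on slide 3 were above every control. The difference was -0.01 ± 0.14 (SE, adjusted p 0.973 in limma, 95% interval -0.32 to 0.30), and was -0.39 on slide 1 against 0.18 across slides 2 and 3.

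The Sfn probe stood well above background on 0 of 6 fipronil arrays and 2 of 6 control arrays, both on slide 2, and was not tested. Its log2 signal ran from -6.11 to -5.11 on fipronil arrays, with a median of -5.64, and from -6.53 to -4.72 on control arrays, with a median of -5.45. The groups overlapped. The probe is printed in a pair of spots, whose SD within an array reached 1.24, and no fold is given.

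**Figure D3:**
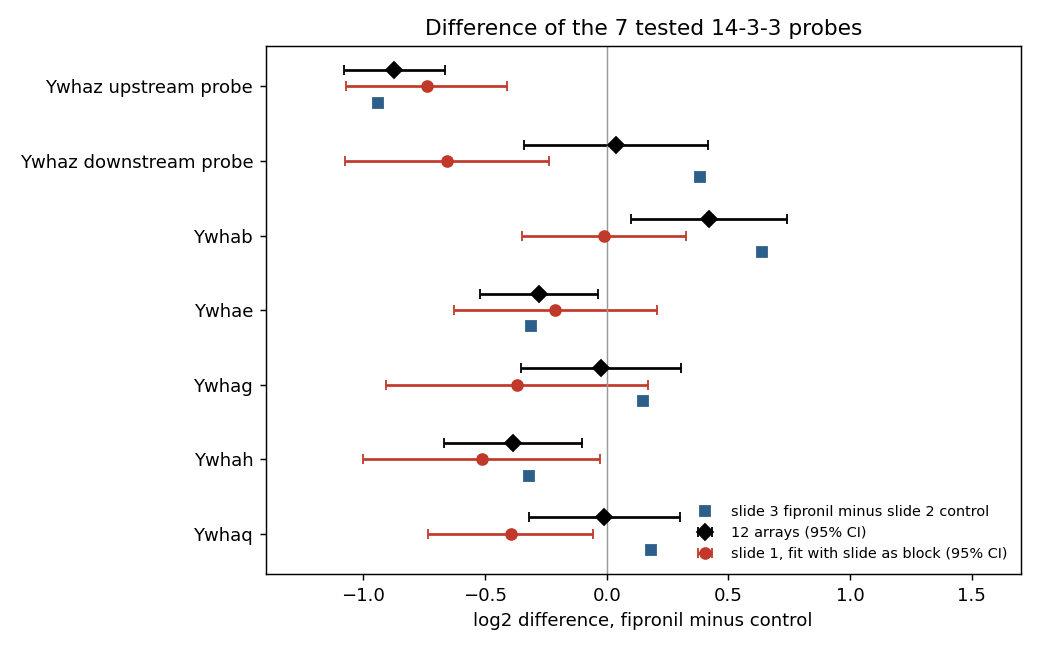
Log2 difference, fipronil minus control (horizontal axis), of the 7 tested probes: over the 12 arrays (black, 95% interval), on slide 1 from the fit with slide as a block (red, 95% interval), and slide 3 fipronil minus slide 2 control (blue, no interval). For the upstream Ywhaz probe (-0.87, -0.74 and -0.94), Ywhae and Ywhah all 3 values lie below 0, and for the downstream Ywhaz probe, Ywhab (-0.01 and 0.64), Ywhag and Ywhaq slide 1 and the other slides lie on opposite sides of 0.

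The isoforms were then compared with each other. Levels of different probes cannot be compared on an array, so each pair was compared by its within-array log2 ratio, taking for Ywhaz the upstream probe, which had the higher mean signal over the 12 arrays. That is also the family probe that passed. Of the 15 pairs of the 6 tested isoforms, 10 had an unequal response (exact two-sided permutation tests, adjusted over the 15 pairs). These were all 5 pairs with Ywhaz, all 5 with Ywhab (the pair of both counted in each), and Ywhag with Ywhah. With the downstream Ywhaz probe in its place, an alternative chosen after seeing the data, 6 pairs passed, and of the 5 with Ywhaz only that with Ywhab did. The pairs share probes and so are not independent, and the test does not know of the slides. No share over pairs of other genes was computed, so nothing is read from the count of 10. Among pairs of probes that name the same gene, 30.2% had an exact permutation p under 0.05 before adjustment.

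With the upstream probe, the widest gap lay between Ywhab and Ywhaz. Their log2 ratio averaged 1.42 ± 0.40 with fipronil and 0.13 ± 0.20 in controls (SD, n = 6 each), a difference of 1.29 (adjusted exact p 0.00649), with 0.73 on slide 1. Relative to Ywhaz, the difference was 0.86 for Ywhaq and 0.85 for Ywhag (adjusted exact p 0.00649 for each), with 0.35 and 0.37 on slide 1. It was 0.59 for Ywhae (adjusted exact p 0.00649) and 0.49 for Ywhah (adjusted exact p 0.0108), with 0.53 and 0.23 on slide 1. Relative to the downstream Ywhaz probe, the difference was 0.38 for Ywhab (adjusted exact p 0.0487), -0.05 for Ywhaq, -0.06 for Ywhag, -0.31 for Ywhae and -0.42 for Ywhah (adjusted exact p 0.0788 to 0.747 for these 4). On slide 1 alone these were 0.64, 0.26, 0.29, 0.44 and 0.14, the same sign as with the upstream probe. All 10 pairs that were unequal with the upstream probe had the same direction on slide 1, where 2 arrays against 2 cannot give an exact p below 0.333 and no test was made. These 10 were picked over the 12 arrays, slide 1 included, so their agreement is partly fixed by the choice. Of all 15 pairs, 12 had the same direction on slide 1. The shift of Ywhae relative to Ywhaz was 0.53 on slide 1 and 0.63 across slides 2 and 3.

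The ratios of Ywhab over the other 4 isoforms differed as well, by 0.81 for Ywhah, 0.70 for Ywhae, 0.44 for Ywhag and 0.43 for Ywhaq. The adjusted exact p were 0.0139, 0.0162, 0.0292 and 0.00649. On slide 1 these differences were 0.50, 0.20, 0.36 and 0.38. The remaining unequal pair, Ywhag over Ywhah, differed by 0.36 (adjusted exact p 0.0289), with 0.15 on slide 1. The 5 pairs that did not pass were Ywhae with Ywhag, Ywhah and Ywhaq, and Ywhaq with Ywhag and Ywhah. Their differences ran from -0.37 to 0.11 and their adjusted exact p from 0.0708 to 0.931, and 3 of them changed sign on slide 1. A ratio shows unequal change and does not say which isoform of a pair moved.

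**Figure D4:**
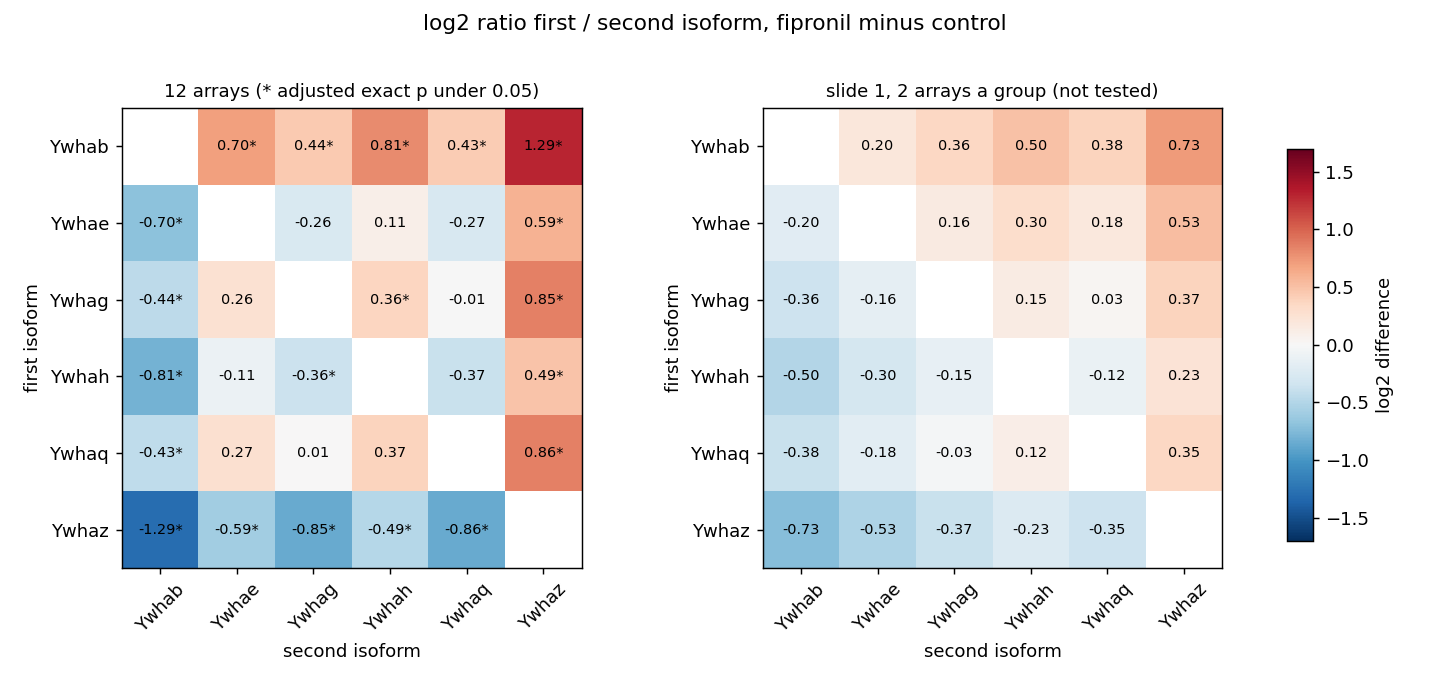
Difference, fipronil minus control, of the within-array log2 ratio of the first isoform (rows) over the second (columns), over the 12 arrays (left; asterisks mark an adjusted exact p under 0.05) and on slide 1 (right, not tested). Ywhaz is its upstream probe, and its row is negative throughout in both panels, from -1.29 to -0.49 on the left and from -0.73 to -0.23 on the right.

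By the rule for likeness, the 4 genes whose centred profiles over the 12 arrays lay closest to the upstream Ywhaz probe, among 9544 genes, were Cks1b, Eif1ax, Atxn7l3b and Vrk1. Their root mean square differences from it were 0.10, 0.13, 0.15 and 0.16 on the log2 scale. For the other tested 14-3-3 probes this value ran from 0.30 (Ywhah) to 0.71 (Ywhab), and it was 0.57 for the downstream Ywhaz probe. Cks1b, a small subunit of cyclin-dependent kinases, had a log2 signal of 0.81 ± 0.17 with fipronil and 1.60 ± 0.09 in controls (SD, n = 6 each), and differed by -0.67 on slide 1. Eif1ax, a translation initiation factor, had -0.70 ± 0.15 with fipronil and 0.09 ± 0.14 in controls (SD, n = 6 each), and differed by -0.72 on slide 1. Atxn7l3b and the nuclear kinase gene Vrk1 differed by -0.68 and -0.65 over the 12 arrays and by -0.60 and -0.47 on slide 1. All 4 fell with an adjusted p between 0.00592 and 0.0101 in limma, which the choice by likeness fixes.

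Among the partners of 14-3-3 proteins, genes passed about as often as over all probes. Of 44 listed clients, 39 were tested, and 1 rose and 1 fell (2.32% and 2.98% of all tested probes did, 5.30% in all). An unadjusted p under 0.05 was found for 12 of the 39, beside 25.0% of all tested probes. Their median log2 difference was -0.05, beside -0.08 over all tested probes, and on slide 1 it was 0.16, beside -0.03. Cbl, a ubiquitin ligase for receptor tyrosine kinases, rose, with a log2 signal of 0.76 ± 0.16 with fipronil and 0.17 ± 0.13 in controls (SD, n = 6 each). Its difference was 0.59 ± 0.11 (SE, adjusted p 0.0151 in limma), with 0.35 on slide 1 (adjusted p 0.283 in the fixed slide block). Wee1, the kinase that holds back entry into mitosis, fell 1.47-fold, with -0.18 ± 0.27 with fipronil and 0.38 ± 0.13 in controls (SD, n = 6 each). Its difference was -0.56 ± 0.13 (SE, adjusted p 0.0327 in limma), with -0.42 on slide 1 (adjusted p 0.339 in the fixed slide block). Wee1 lost the call without fipronil replicate 1, 2 or 3 or control replicate 2, 6, 7 or 8, with adjusted p from 0.0603 to 0.0779. Tyrosine hydroxylase (Th), the client that the Ywha gene names recall, differed by -0.48 ± 0.20 (SE, adjusted p 0.153 in limma), with 0.10 on slide 1.

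For enzymes that make or remove 14-3-3 docking sites, each count is to be read beside the 5.30% of all tested probes past the adjusted p and the 25.0% with an unadjusted p under 0.05. Of 24 listed kinases that phosphorylate such sites on clients, 20 were tested and 0 passed in limma (2 had an unadjusted p under 0.05), with a median of -0.08. The catalytic subunit gene of protein kinase A, Prkaca, and the survival kinase gene Pim3, the members with the highest signal, differed by 0.24 and 0.02. Of 7 phosphatase genes 0 passed (3 unadjusted), with a median of -0.20, and Ppp1ca and Ppp1cc, catalytic subunits of protein phosphatase 1, differed by -0.29 and 0.04. Of 4 tested kinases that phosphorylate 14-3-3 proteins themselves 0 passed (0 unadjusted), and Prkcd and Mapk9 differed by -0.26 and 0.01. Of 5 regulators of Sfn 0 passed (2 unadjusted), and the ubiquitin ligase genes Cop1 and Trim25 differed by 0.03 and 0.15. On slide 1 the differences were 0.05 for Prkaca, 0.20 for Pim3, 0.08 for Ppp1ca and -0.45 for Ppp1cc. They were 0.16 for Prkcd, 0.20 for Mapk9, -0.18 for Cop1 and 0.33 for Trim25 there. The sign thus turned on slide 1 for Ppp1ca, Ppp1cc, Prkcd and Cop1.

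**Figure D5:**
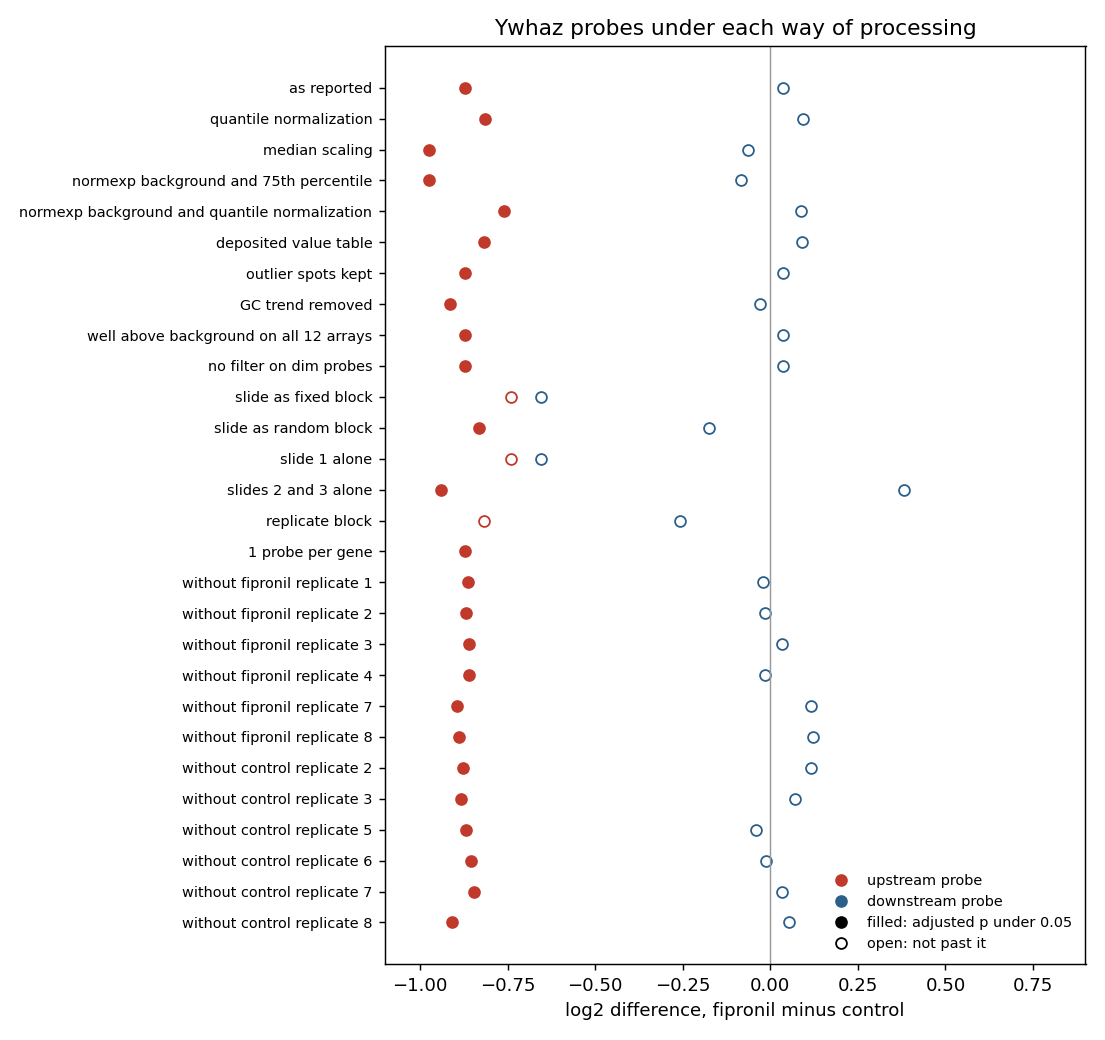
Log2 difference, fipronil minus control (horizontal axis), of the upstream (red) and downstream (blue) Ywhaz probe under each way of processing (rows); filled markers passed an adjusted p of 0.05. The upstream probe lies between -0.97 and -0.74 in every row, and the downstream probe lies on both sides of 0, from -0.66 to 0.38.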

How the data were processed

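Cy3-labelled total RNA was hybridised to Agilent arrays of 62976 spots, 58717 of them not controls. Per the submitters' processing notes the authors used Agilent Feature Extraction 10.7. Per the file headers, the processed signal is a background-subtracted, detrended intensity without scaling between arrays, mean signal and local background are raw intensities, and the outlier, saturation and background columns are other marks of 0 or 1. The authors' deposited table holds log2 values, quantile-normalized per the labels' titles, with a floor of 1.5 and not centred on 0 (column medians 3.04 to 3.06). Its direction was checked against each array (lowest rank correlation with its own array 0.995, highest with another 0.941).

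The members, the gene lists and the tests were chosen with earlier results of these data known. Spots marked as outliers were left out, except where every spot of a probe was marked on that array. A marked spot of a probe with 1 spot was therefore kept. Log2 signals were set relative to each array's 75th percentile and spots of a probe were averaged. Probes well above background on at least 6 of 12 arrays were kept (16291). None of the spots used was saturated. Probes were tested with limma 3.58.1 in R 4.3.3 (lmFit, eBayes, two-sided, Benjamini-Hochberg over all 16291). List genes used their brightest tested probe. Names came from the file for the family and from RefSeq GRCr8 otherwise (21109 probes by accession, 6684 by symbol, 424 by synonym, 17381 left as in the file). Named genes were every family probe, list members past the threshold (or the 2 brightest), and the 4 genes most like a family probe that passed. The fit was tested on simulated data with independent noise and no slide effect, and the exact test on made-up values with a known answer. Neither check covers the slide layout. Same-numbered samples of the groups had deviations correlated at 0.43, 0.09, -0.12 and -0.33 (numbers 2, 3, 7 and 8), lie on different slides and were not treated as pairs. Alternatives covered scaling, background, GC trend, filters, slide, replicate number, 1 probe per gene, each array left out and, for isoform pairs, the other Ywhaz probe.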

Additional observations from a re-analysis of the deposited data

Results flagged for a closer look

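Among 18 sets of 6 values examined (the 8 probes and the Ywhaz probe ratio in each treatment), 1 held a sample far from the others, where chance flags about 1 in 20. The Ywhah signal of fipronil replicate 3 was 0.10, the lowest of the fipronil arrays, and its gap to the next array was 0.653 of the range of the group, above Dixon's 95% critical value for 6 samples.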

How the results depend on the processing

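The upstream Ywhaz probe kept its direction in all 15 alternatives and 12 leave-one-out fits (-0.97 to -0.74, adjusted p 0.000243 to 0.276). It was not past the threshold with slide as a fixed block (0.101), on slide 1 alone (0.276) or with the replicate block, where its difference was -0.82 (adjusted p 0.178). The replicate block left 0 probes past the threshold in limma (2653 at an unadjusted p under 0.05) and 0 of the family. The labels do not say whether same-numbered samples were paired. Slide 1 alone also left 0 probes (2541 unadjusted). The count of changed probes was 8565 with a normexp background and 75th percentile (77.1% higher, median of all probes 0.20; 43.8% higher as reported), 21371 without a filter (92.9% higher), 4 with slide as a fixed block, 26 with slide as a random block, 3515 on slides 2 and 3, and 292 to 2372 leaving out 1 array (292 without fipronil replicate 3 and 2372 without fipronil replicate 8; only without fipronil replicate 7 was it within 1.5 times). Under median scaling 26.3% of calls were higher, the median of all probes being -0.18. The count of family probes past it was 3 with a normexp background and 75th percentile (Ywhae and Ywhah added), 2 with a normexp background and quantile normalization or on slides 2 and 3 (Ywhab added), 0 with slide as a fixed block or slide 1 alone, and 1 to 2 leaving out 1 array. The isoform pairs past it numbered 10 to 11 in 10 alternatives, 6 with the downstream Ywhaz probe (chosen after seeing the data), and 9 to 12 leaving out 1 array. Pairs were not run with blocks or on slide 1, whose 2 against 2 arrays cannot pass.

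Signs turned for values near 0 and for Ywhab, which was 0.42 as reported. Ywhag was 0.021 under quantile normalization, 0.020 in the deposited table, 0.11 with normexp and quantile normalization, 0.15 on slides 2 and 3, and -0.10 to 0.062 leaving out 1 array. Ywhaq was 0.030, 0.028, 0.082 and 0.18 in the same order, and -0.071 to 0.090 leaving out 1 array. The downstream Ywhaz probe was -0.065 under median scaling, -0.082 with normexp and 75th percentile, -0.028 with the GC trend removed, -0.18 with slide as a random block, -0.26 with the replicate block, -0.66 on slide 1 and in the fixed slide block, and -0.040 to 0.12 leaving out 1 array. Ywhab was -0.013 on slide 1 and with slide as a fixed block. The median of the clients was 0.20 with normexp and 75th percentile and 0.16 on slide 1 and with slide as a fixed block, and that of the kinases of 14-3-3 proteins was 0.016 and 0.18. With slide as a random block the median of the clients was 0.0037. For the kinases of client sites it was 0.066 with normexp and 75th percentile. On slide 1 and with slide as a fixed block it was 0.018 for them. Among probes well above background on all 12 arrays it was 0.016 for these kinases. The causes were not tested.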

Other observations

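The array files describe 4 further probes as like 14-3-3 proteins under other names, chosen here after their values were seen. The probe named ENSRNOT00000029099, described there as similar to 14-3-3 tau, stood well above background on all 12 arrays. Its log2 signal was 0.72 at the lowest, 1.25 at the median and 1.97 at the highest on fipronil arrays, against 1.95, 2.04 and 2.18 on control arrays, and 5 of 6 fipronil arrays lay below every control. Its log2 difference was -0.76 ± 0.18 (SE, adjusted p 0.034 in limma), with -0.39 on slide 1 (adjusted p 0.495 in the fixed slide block), while the Ywhaq probe differed by -0.01. A sigma-like gene, LOC298795 in the files and Sfnl1 in RefSeq, had a probe of 10 spots that was well above background on 10 of 12 arrays. It differed by -0.46 ± 0.15 (SE, adjusted p 0.0788 in limma), with -0.27 on slide 1. The second probe of Sfnl1 and that of LOC103690862 were well above background on 2 and 0 of 12 arrays.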
